A study of Mus musculus with 947 samples.

Results

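miR-465-3p and miR-741-3p are a pair of X-linked mouse miRNAs whose liver levels rose with age. They were followed here through every tissue, age and parabiosis group of an atlas of mouse small non-coding RNA. The members, mmu-miR-465a-3p, mmu-miR-465b-3p, mmu-miR-465c-3p and mmu-miR-741-3p, were taken by name, 4 rows of 1076 miRNA rows in the aging cohort and of 795 in the parabiosis cohort. The rows of miR-465a-3p, miR-465b-3p and miR-465c-3p share their reads and count as 1, so that 2 measured miRNAs remain. The miR-465b-3p row equalled the miR-465a-3p row in all 769 aging libraries and all 176 parabiosis libraries. The miR-465c-3p row differed from it in 31 and 27 libraries, by at most 1.30 rpmm, and was never the higher. The row of miR-465a-3p therefore stands for all 3 below, and "both members" means miR-465a-3p and miR-741-3p.

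The members were chosen by their correlation with age in the 52 livers of the aging cohort, so that rise is described here and not tested. Levels are in rpmm, the reads of a miRNA scaled to 1000000 mapped reads of the library, and differences are on the log2(rpmm + 1) scale unless stated. The aging cohort consisted of male and virgin female C57BL/6JN mice of 10 ages between 1 and 27 months, perfused and dissected into 16 tissues. Only males were present at 24 and 27 months. The parabiosis cohort consisted of 15 surgically joined pairs of male mice, sampled after 5 weeks. Isochronic young (IY) and isochronic aged (IA) mice were joined to a partner of like age, while heterochronic young (HY) and heterochronic aged (HA) mice were joined to each other. Aged mice were 19 months old, HY mice were 4 months old and IY mice were 3 or 4.5 months old. Every HY mouse was of another strain, so HY status and strain cannot be told apart. The other parabiosis mice were C57BL/6J, except that both mice of 1 IA pair and 1 HA mouse were C57BL/6JN, by the study's sample table. Its summary of the animals gives these substrain names the other way round, with 3 aged mice as C57BL/6J, so which name applies to which mice is not settled. There were 38 male and 14 female livers in the aging cohort, and 8 IY, 7 HY, 7 HA and 8 IA livers in the parabiosis cohort.

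MicroRNAs silence messenger RNAs by pairing through the seed, bases 2 to 8 of the mature strand. The miR-465, miR-741, miR-743, miR-871, miR-880 and miR-883 genes belong to a fast-evolving cluster of miRNA genes on the X chromosome. This cluster is best known for its expression in the testis, where its members are abundant in male germ cells. In liver the most abundant tissue-specific miRNA is miR-122, which serves below as a marker of liver RNA. The genes Mir201, Mir547 and Mir509, further along the same chromosome, belong to the same wider family.

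The mature sequences below are those of RefSeq (GRCm38.p6), 5′ to 3′, with the seed in capitals. They are shown because the 3 miR-465 names have a single sequence between them, from which miR-465d-3p and miR-741-3p differ, and because the last 3 are the named neighbours whose liver pattern is compared with theirs.
miR-465a-3p, miR-465b-3p and miR-465c-3p: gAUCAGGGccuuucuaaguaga
miR-465d-3p: uGAUCAGGgccuuucugaguaa
miR-741-3p: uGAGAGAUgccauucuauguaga
miR-871-5p: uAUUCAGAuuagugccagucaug
miR-880-3p: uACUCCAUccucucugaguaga
miR-471-3p: uGAAAGGUgccauacuauguau

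The seed of the miR-465 3p strand was carried by no other name among the 1679 mature mouse miRNAs of the table, and the seed of miR-741-3p by miR-741-3p alone. The members thus share no seed with each other. The seed of miR-465d-3p is the same stretch shifted by a base, and that of miR-871-5p is shared with miR-743a-5p. All genes of the group lay on the minus strand of the X chromosome (GRCm38.p6, the same primary assembly as the mm10 build the submitters name). The mature miR-741-3p lay at chrX:66796809-66796831 and the mature miR-465a-3p at chrX:66839063-66839084. The 19 precursors around them filled 62.4 kb, chrX:66776757-66839125. None of the 19 overlapped another RefSeq gene, and the stretch held 1 other annotated gene, the pseudogene Gm14681, so the precursors were intergenic. Mir201, Mir547 and Mir509 lay 1149 kb further on, at chrX:67988096-68010179.

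In the aging cohort, liver libraries held 2.29 to 29.6 M mapped reads (M, 1000000), with a median of 15.8 M. At that depth 1 read in a median library corresponds to under 0.1 rpmm, so levels under about 0.2 rpmm rest on 3 reads or fewer. One liver library went against its label. It is the 9-month female replicate 31, in which the female-specific RNA Xist had 1 read in 29.3 M mapped reads, while the 13 other female livers had 1 to 9 Xist reads and 26 of 38 male livers had none. At 32 of 33 miRNAs that differed between the sexes and are not X-cluster names, this library lay nearer to the male mean, against 1 to 18 of 33 in the other females and 11 to 32 in males. It is called the library labelled female replicate 31 below, and the differences between the sexes in liver are given with and without it.

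Levels in old livers were far higher in males than in females. In male livers of 1 month, miR-465a-3p lay between 0.27 and 0.63 rpmm (median 0.47, n = 4). The male median was 1.03 rpmm at 3 months, 2.71 at 6 months and 5.84 at 9 months. It reached 16.7 rpmm at 12 months, 23.5 at 15 months and 35.7 at 18 months, where the 4 males spanned only 35.4 to 37.3 rpmm. The 4 males of 21 months were 12.0, 56.4, 98.7 and 177 rpmm, the 3 males of 24 months were 55.1, 59.7 and 190 rpmm, and the 4 males of 27 months lay between 121.7 and 182.6 rpmm. Every male of 18 months or more was above every male of 6 months or less, and the median of the 15 old males was 58.0 times that of the 12 young ones.

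miR-741-3p followed the same course at a lower level. In males of 1 month it lay between 0 and 0.16 rpmm, with 2 of 4 libraries at 0. The male median was 0.17 rpmm at 3 months, 0.43 at 6 months, 1.57 at 9 months, 4.64 at 12 months and 8.63 at 15 months. It was 12.1 rpmm at 18 months (9.87 to 20.03), 14.6 at 21 months (4.45 to 35.2), 19.2 at 24 months (13.3 to 60.5) and 50.8 at 27 months (42.8 to 61.1). Again no male of 6 months or less reached the lowest male of 18 months or more, and the ratio of the old to the young median was 112. The young median of 0.17 rpmm rests on a few reads per library, which limits the precision of that ratio.

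**Figure D1:**
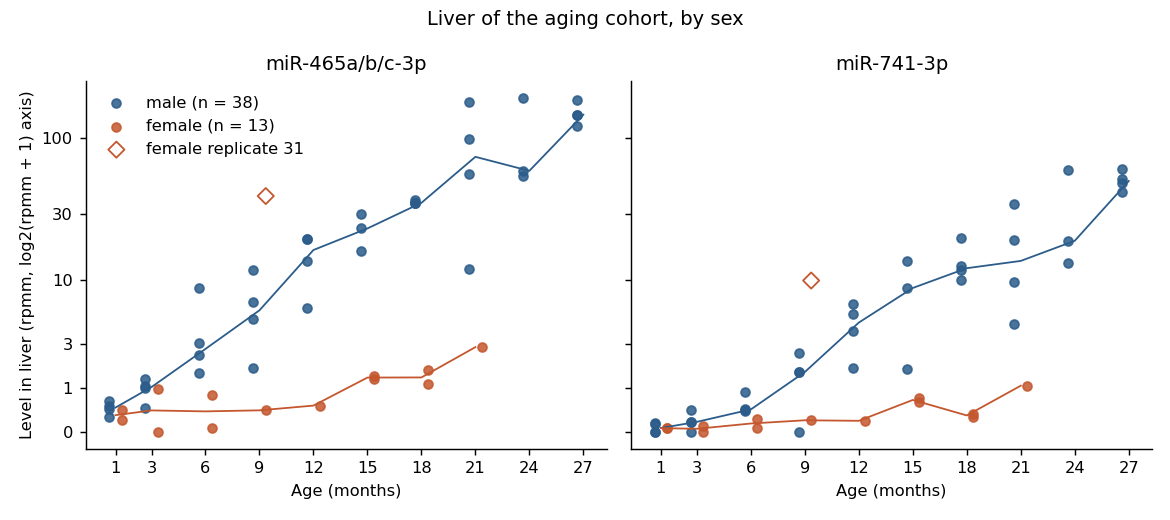
Level of miR-465a/b/c-3p (left) and miR-741-3p (right) in each liver of the aging cohort, on a log2(rpmm + 1) axis labelled in rpmm, against age in months; blue points are males, orange points females, lines join the medians by sex, and the open diamond is the library labelled female replicate 31, left out of the female line. Males climbed from about 1 rpmm or less at 1 and 3 months to between 121.7 and 182.6 rpmm of miR-465a-3p at 27 months, while the other 13 females stayed at or below 2.80 rpmm.

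Female livers stayed low, though their miR-465a-3p went from a median of 0.31 rpmm at 1 to 6 months to 1.63 rpmm at 18 and 21 months. Without replicate 31, miR-465a-3p in the 13 females was between 0 and 2.80 rpmm (median 0.80) and miR-741-3p between 0 and 1.07 rpmm (median 0.20). The 3 females of 18 and 21 months held 1.11, 1.63 and 2.80 rpmm of miR-465a-3p, and the lowest of the 8 males of these ages held 12.0 rpmm. Thus the lowest old male was 4.29 times the highest old female for miR-465a-3p, and 4.15 times for miR-741-3p. In female livers, with replicate 31 included, rho with age was 0.71 for miR-465a-3p and 0.78 for miR-741-3p (14 livers), where 7.58% of miRNAs exceeded 0.5. In male livers rho was 0.96 and 0.94 (38 livers), where 14.6% did. The 6 females of 1 to 6 months lay between 0 and 0.97 rpmm of miR-465a-3p, and those of 18 and 21 months lay above them. Replicate 31 itself held 39.8 rpmm of miR-465a-3p and 9.82 rpmm of miR-741-3p, above all 4 males of its age.

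The dependence on sex was tested in livers of 1 to 21 months, the ages with both sexes, which also entered the correlation that chose the members. Averaged over these ages, males were higher than females by 1.87 ± 0.36 log2 units for miR-465a-3p (SE, limma, adjusted p = 0.000236) and by 1.15 ± 0.30 for miR-741-3p (adjusted p = 0.00846). With a pseudocount of 0.1 rpmm the differences were 2.65 and 1.87, and with edgeR 2.35 and 2.23, all called. Of 501 miRNAs tested, 25 were higher in males (4.99%). Most livers behind the choice of members were male, which favours a male excess, so the members' p-values are no independent support. Without replicate 31 the differences were 2.22 ± 0.31 and 1.40 ± 0.26. With the sequencing plate as a covariate they were 1.09 ± 0.47 and 0.86 ± 0.39, and the calls were lost (adjusted p = 0.209 and 0.251). Plate and sex overlapped, since 4 of the 10 named plates held no female liver.

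The age slopes of the sexes are described and not tested for the members, since the rise by which these were chosen is made of the same livers. In males the level rose by 0.275 ± 0.023 log2 units per month for miR-465a-3p and by 0.213 ± 0.019 for miR-741-3p. In females, with replicate 31 included, the slopes were 0.058 ± 0.036 and 0.032 ± 0.029. Female levels lie near the pseudocount of 1 rpmm, and with 0.1 rpmm the female slopes were 0.138 ± 0.048 and 0.119 ± 0.048. The male slope exceeded the female slope by 0.217 ± 0.043 per month for miR-465a-3p and by 0.181 ± 0.034 for miR-741-3p. With plate as a covariate these differences were 0.215 ± 0.050 and 0.170 ± 0.040, without replicate 31 they were 0.211 ± 0.031 and 0.177 ± 0.027, and with 0.1 rpmm they were 0.198 ± 0.057 and 0.228 ± 0.057.

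Of the 501 miRNAs in the limma fit, 25 had a steeper slope in males (4.99%) and 0 a steeper slope in females. These 25 were the 4 member rows and 21 of the listed X-chromosome neighbours, with no other miRNA among them. For the member rows this count is no test, since the livers are those that chose them, and the neighbours share their rise. The median slope difference over all 501 miRNAs was 0.007 log2 units per month. In the test of sex, 20 miRNAs were lower in males, no neighbour among them. Higher in males on average were the 4 member rows, 15 neighbours and 6 others, namely miR-149-5p, miR-592-5p, miR-455-5p, miR-21a-5p, miR-1948-3p and miR-1948-5p.

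The neighbours within the 62.4 kb stretch had liver patterns like those of the members. Of 36 listed mature names, 29 were in the aging table and 27 passed the filter on low values in liver, a level of 1 rpmm or more in 10% of livers. Within the 62.4 kb stretch all 25 that passed correlated with age at a Spearman rho between 0.71 and 0.83 (median 0.79, 52 livers), where the median over 501 miRNAs was 0.16 and 50 of the 501 exceeded 0.5 (9.98%). The members themselves stood at 0.83 and 0.85. Strands near 0 in young males and in females, such as miR-741-5p, could pass the filter only through livers where they were high. That all 25 rose is therefore partly set by the filter. In males alone the median of the 25 neighbours was 0.92 and in females 0.45, both sets including strands close to 0 rpmm in females. Of the 50 miRNAs above 0.5, 4 were the member rows, 25 were neighbours in the stretch and 21 were others, miR-547-3p among them.

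The neighbours differed in level far more than in course. miR-880-3p went from a median of 0.38 rpmm in males of 1 to 6 months to 37.98 rpmm in males of 18 to 27 months. miR-871-5p went from 0.59 to 35.4 rpmm, miR-471-3p from 0.16 to 9.26 rpmm and miR-743b-3p from 0.10 to 8.31 rpmm. At the low end, miR-742-3p reached a median of 0.82 rpmm and miR-883b-5p 0.70 rpmm in old males, both from a young median of 0. In the females of 18 and 21 months the highest values of miR-880-3p and miR-871-5p were 0.84 and 1.07 rpmm. The library labelled female replicate 31 was high for the whole stretch, with 21.1 rpmm of miR-880-3p and 13.6 rpmm of miR-871-5p.

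The opposite strands of the same hairpins rose as well. miR-465b-5p and miR-465c-5p, whose sequences are nearly identical so that reads may be split between them, reached medians of 8.01 and 4.69 rpmm in old males, and miR-741-5p 1.91 rpmm against 19.6 rpmm of miR-741-3p. miR-465d-3p, the copy with the shifted seed, reached 1.08 rpmm.

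**Figure D2:**
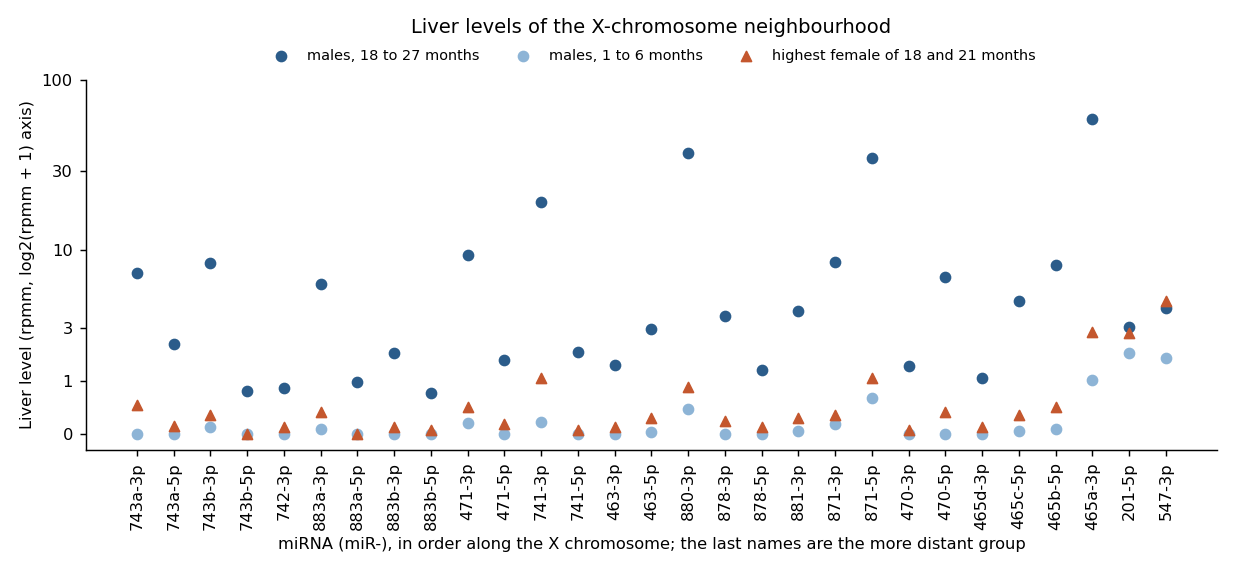
Liver level of each neighbourhood miRNA that passed the filter, on a log2(rpmm + 1) axis labelled in rpmm, in the order of the genes along the X chromosome; dark blue is the median of the 15 males of 18 to 27 months, light blue the median of the 12 males of 1 to 6 months, and orange triangles the highest of the 3 females of 18 and 21 months. Old males stood above young males and old females across the stretch, from miR-743a-3p at 7.15 rpmm to miR-465a-3p at 59.7 rpmm, whereas for miR-547-3p the highest old female was above the old male median.

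The 2 more distant neighbours that passed the filter behaved otherwise. miR-201-5p had a rho of 0.44 with age and medians of 1.87 and 3.03 rpmm in young and old males. miR-547-3p had a rho of 0.53 and medians of 1.69 and 4.20 rpmm. Females reached 9.20 rpmm of miR-201-5p and 10.6 rpmm of miR-547-3p, and neither miRNA passed the test for sex or for the slope difference. Outside the list, 46 other X-chromosome miRNAs were tested and 1 had a rho above 0.5, while 17 of 343 on other chromosomes did.

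By Spearman's rho over the 52 livers, the miRNAs most like miR-465a-3p were miR-880-3p (0.96), miR-871-5p (0.95), miR-743b-3p (0.94), miR-471-3p (0.94) and miR-743a-3p (0.94). Those most like miR-741-3p were miR-471-3p (0.98), miR-871-5p (0.97), miR-465b-5p (0.96), miR-878-3p (0.95) and miR-743a-3p (0.94). All are neighbours in the same stretch and share the libraries, their depth, age and sex. The members correlated with each other at 0.93. The most alike outside the list were miR-149-5p (0.81 and 0.76) and miR-592-5p (0.77 and 0.72), on chromosomes 1 and 6.

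A library of low depth stood apart in the ratio of the members. In the 14 other males of 18 to 27 months, miR-465a-3p was 1.77 to 4.49 times miR-741-3p (median 2.87). In the 21-month male replicate 17, with 2.31 M mapped reads, the ratio was 18.6, from 409 reads of miR-465a-3p and 22 of miR-741-3p. There miR-465d-3p was at 0. Without this library the difference between 21 and 3 months fell to 3.73 log2 units for miR-465a-3p from 4.32, and hardly moved for miR-741-3p, at 3.07 from 3.10.

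Marker levels of other cell types are given beside the rise because liver is a mixed tissue. The liver list (miR-122-5p, miR-122-3p and miR-192-5p) summed to 67002 to 164708 rpmm in males of 1 to 6 months and to 103602 to 188020 rpmm in males of 24 and 27 months. The white blood cell list summed to a median of 760 rpmm in males of 1 to 6 months and 1593 rpmm in males of 24 and 27 months, and the fibroblast list to 832 and 1497 rpmm. In the 3 females of 18 and 21 months these lists had medians of 1120 and 1491 rpmm. Over the 38 male livers their sums had a rho of 0.59 and 0.62 with miR-465a-3p, and of 0.59 and 0.60 with age. The list for germ cells and gonad had medians of 8.59 rpmm in young and 13.9 rpmm in the oldest males and 9.28 rpmm in the old females. Its gonadal marker miR-202-5p was at 0 in every male liver of 1 to 15 and of 24 and 27 months. However, it was not at 0 in every male liver of 18 and 21 months. The part of white blood cells and fibroblasts in the rise was not tested, and in bulk tissue more cells of a type and more RNA per cell cannot be told apart.

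Across the other tissues the members were near the detection limit, with heart as the exception. Liver came first by mean level for both members (median 5.50 rpmm of miR-465a-3p over all ages), which the choice of members favours. Heart came second, with a median of 0.62 rpmm in the 38 males and 1.98 rpmm in the 15 females. Heart was above the tissue next in order, brain, for both members (permutation test, adjusted p = 7.5e-05, the smallest the shuffles can give). No later neighbours in the order, from brain and bone marrow down, differed beyond their spread. In the 14 tissues other than liver and heart, tissue medians lay between 0 and 0.31 rpmm for miR-465a-3p and between 0 and 0.11 rpmm for miR-741-3p. At 3 months the mean of miR-465a-3p was 1.52 log2 units in 5 hearts and 0.80 in 6 livers, and no neighbours in the order were called at that age.

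Of the 664 libraries of those 14 tissues, 6 reached 1 rpmm of miR-465a-3p and 3 reached 1 rpmm of miR-741-3p. The highest was the bone marrow of a 15-month male (replicate 16), with 15.0 and 4.97 rpmm. That library also held 22311 rpmm of the liver miRNA miR-122-5p, the highest of all marrow libraries, whose median was 14.3 rpmm. The subcutaneous fat of a 27-month male (replicate 21) held 2.11 and 1.45 rpmm beside 1765 rpmm of miR-122-5p, also the highest of its tissue. In the other 4 libraries, 3 of marrow and 1 of spleen, miR-465a-3p was 1.36 to 3.91 rpmm and miR-122-5p was 6.28 to 21.0 rpmm, against medians of 14.3 rpmm in marrow and 18.4 rpmm in spleen. The part of liver RNA in the marrow and fat values was not tested.

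In heart, both members were higher in females, the reverse of liver. Among hearts of 1 to 21 months, miR-465a-3p was 0.52 to 4.05 rpmm in 15 females (median 1.98) and 0.23 to 2.67 rpmm in 31 males (median 0.63). The mean was higher in females at 7 of 8 ages, each of which held 1 or 2 females and 3 or 4 males. The male minus female difference was -0.62 ± 0.11 log2 units (limma, adjusted p = 0.000262). Of 533 miRNAs tested in heart, 4 were higher in females (0.75%), the 3 miR-465 rows and miR-871-5p, and 1 was higher in males, miR-1247-5p. With plate as a covariate the difference was -0.73 ± 0.13. This comparison was chosen after the heart values had been seen.

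miR-741-3p did not pass the filter in heart and has no test there. Its levels were 0.24 to 1.31 rpmm in females (median 0.60) and 0 to 0.50 rpmm in males (median 0.15). Females were above males on average at all 8 ages. The neighbour miR-871-5p had medians of 0.66 and 0.19 rpmm and miR-880-3p of 0.43 and 0.19 rpmm in the same female and male hearts.

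The difference between the tissues was tested in a fit over liver and heart. The male minus female difference was larger in liver than in heart by 2.49 ± 0.39 log2 units for miR-465a-3p (limma, adjusted p = 5.9e-07) and by 1.65 ± 0.31 for miR-741-3p (adjusted p = 3.41e-05). Of 594 miRNAs, 26 had a larger difference in liver (4.38%). The liver values of this fit also entered the choice of members, so its p-values for them carry the same limit as the test of sex. In heart miR-741-3p did not pass the filter and entered this fit through liver, so its p-value here is no test of heart. Without replicate 31 the values were 2.84 ± 0.33 and 1.90 ± 0.27.

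**Figure D3:**
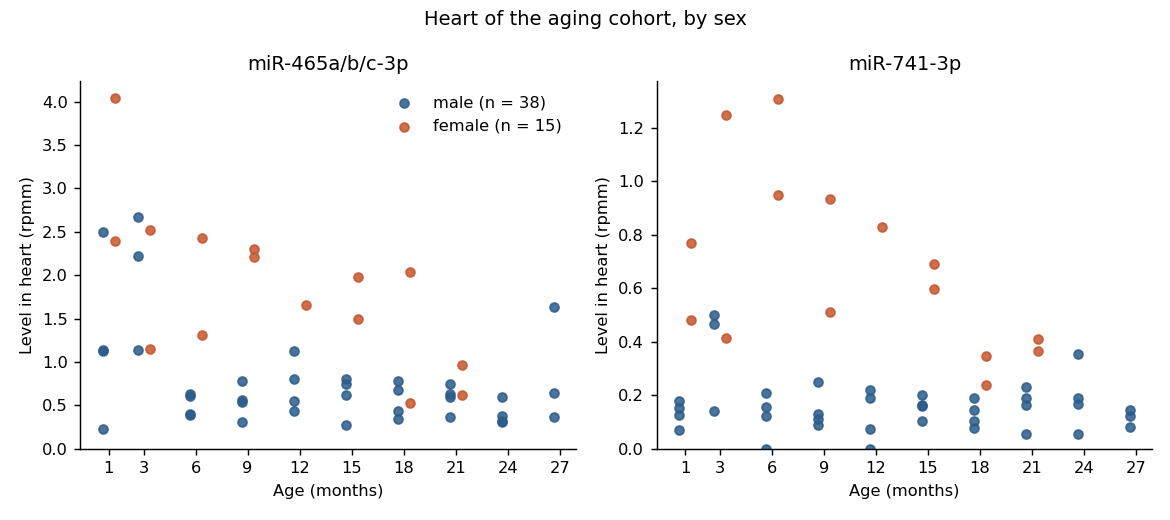
Level of miR-465a/b/c-3p (left) and miR-741-3p (right) in rpmm in each heart of the aging cohort against age in months; blue points are males and orange points females. Females lay above most males, with medians of 1.98 against 0.63 rpmm of miR-465a-3p up to 21 months, and both sexes stayed below 5 rpmm at all ages.

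With age, miR-465a-3p fell in heart over all 53 libraries (Spearman rho -0.44, permutation test, adjusted p = 0.0127; Pearson r -0.47, permutation p = 0.00048). With 2 libraries at the extremes of age left out, r was -0.45 (permutation p = 0.00114). Of 533 miRNAs, 34 fell with age in heart (6.38%). No females were present at 24 and 27 months. In males alone rho was -0.32 (adjusted p = 0.209) and in females alone -0.69 (adjusted p = 0.159), and within sequencing plates rho was -0.45 (adjusted p = 0.0446). In the 14 other tissues no member passed the filter. Without the filter, rho of miR-465a-3p was 0.47 in gonadal fat (adjusted p = 0.0343) and 0.43 in mesenteric fat (adjusted p = 0.0271), at levels of at most 0.64 and 0.30 rpmm. For miR-741-3p it was 0.26 and 0.10, which were not called (adjusted p = 0.315 and 0.647).

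The parabiosis cohort, which did not enter the choice of members by age trend, gave a second set of livers, all male. Aged livers were high and young livers low, whoever the partner was. The 8 IY livers held 0.88, 1.09, 1.82, 1.94, 2.15, 2.24, 2.39 and 4.48 rpmm of miR-465a-3p (lowest to highest, median 2.05). The 7 HY livers held 0.17 to 1.89 rpmm (median 1.00). The 8 IA livers held 13.95 to 44.3 rpmm (median 21.2), and the 7 HA livers 5.55 to 71.1 rpmm (median 30.97). No young liver reached the lowest aged liver.

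miR-741-3p was arranged likewise. The IY livers held 0.14 to 1.46 rpmm (median 0.83), the HY livers 0.25 to 1.18 (median 0.54), the IA livers 5.41 to 20.2 (median 10.9) and the HA livers 2.37 to 39.6 (median 15.0). The widest group was HA for both members. HA replicates 12A and 20A were its lowest, with 5.55 and 7.17 rpmm of miR-465a-3p, and 2A its highest. The 3 mice to which the sample table gives the other substrain were HA replicate 20A and the IA pair 19A and 19B, with 23.01 and 13.95 rpmm.

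IA livers exceeded IY livers by 3.04 ± 0.36 log2 units for miR-465a-3p (limma, adjusted p = 9.88e-08) and by 2.85 ± 0.35 for miR-741-3p (adjusted p = 1.39e-07), or 8.24 and 7.23 times on this scale. With a pseudocount of 0.1 rpmm the ratios were 11.7 and 15.5 times, and with edgeR 11.2 and 14.8, so which member had the larger ratio depends on the scale. HA livers exceeded HY livers by 3.60 ± 0.39 (adjusted p = 8.01e-09) and 2.85 ± 0.38 (adjusted p = 3.5e-07), or by 4.46 and 3.94 with 0.1 rpmm. With the 2 partners of an isochronic pair averaged to 1 value, the exact permutation test of 4 IA against 4 IY pairs gave p = 0.0286 for both members, the smallest that design allows. Within the 7 heterochronic pairs the ratio of aged to young partner was 4.29 to 428 for miR-465a-3p and 4.62 to 79.5 for miR-741-3p. The ratio of 428 rests on an HY liver at only 0.17 rpmm.

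The background of these calls was small. Of 444 miRNAs tested in liver, 25 were higher in IA than in IY (5.63%) and none lower. Those 25 were the 4 member rows and 21 neighbours, and 23 miRNAs (5.18%) had IA values that did not overlap the IY values. In HA against HY, 32 were higher (7.21%), the same 25 and 7 others, and 17 did not overlap (3.83%). The 7 others were miR-155-5p, miR-183-3p, miR-215-5p, miR-744-5p, miR-802-3p, miR-802-5p and miR-12182-3p. The median over all 444 was 0.04 log2 units for IA minus IY and 0.30 for HA minus HY. Neighbours near 0 in young livers, such as miR-463-3p with medians of 0 in IY and HY, could pass the filter only through aged livers. For these the filter favours a higher level in aged livers. The 21 neighbours that passed the filter had median differences of 1.38 and 1.62. Among them, miR-880-3p had group medians of 1.21 rpmm in IY, 0.68 in HY, 21.5 in HA and 12.7 in IA. The distant miR-201-5p differed by 0.11 ± 0.19 and 0.07 ± 0.20, and was not called.

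**Figure D4:**
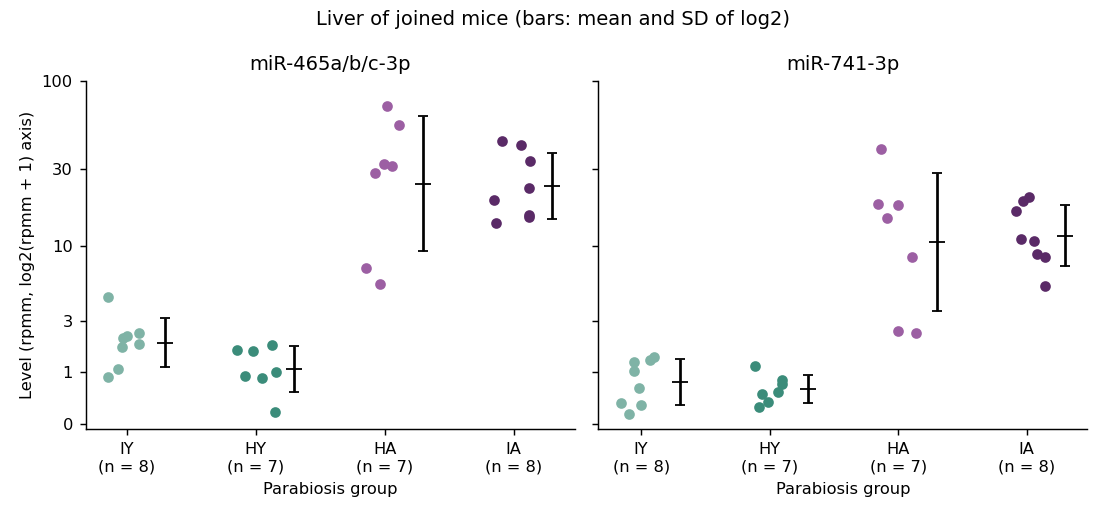
Level of miR-465a/b/c-3p (left) and miR-741-3p (right) in each liver of the parabiosis cohort, on a log2(rpmm + 1) axis labelled in rpmm; the young groups are IY and HY, the aged groups HA and IA, and bars give the mean and SD on the log2 scale. All aged livers (5.55 to 71.1 rpmm of miR-465a-3p) stood above all young livers (0.17 to 4.48 rpmm).

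The age of the partner had no detected effect on either member. HA differed from IA by 0.04 ± 0.38 log2 units for miR-465a-3p (95% interval -0.69 to 0.78) and by -0.13 ± 0.36 for miR-741-3p (-0.84 to 0.58), both at a limma adjusted p of 0.993. HY differed from IY by -0.51 ± 0.38 for miR-465a-3p (-1.25 to 0.22, adjusted p = 0.574) and by -0.13 ± 0.36 for miR-741-3p (-0.84 to 0.58, adjusted p = 0.877). With a pseudocount of 0.1 rpmm the HY minus IY difference of miR-465a-3p was -0.89 (-1.77 to -0.014, limma adjusted p = 0.482), which was not called though its interval leaves out 0. These intervals exclude differences as large as that between IA and IY, but not differences of 0.5 log2 units. No miRNA of the 444 passed in either contrast with limma (0%). At an unadjusted p under 0.05 there were 23 for HA minus IA and 39 for HY minus IY, edgeR called 0 in each, and DESeq2 called 12 and 8, without the members. The 4 contrasts share groups, and the HY mice also differed in strain. Among the IY mice, miR-465a-3p was 0.88 to 2.24 rpmm in the 4 mice of 3 months and 1.94 to 4.48 rpmm in the 4 mice of 4.5 months.

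Marker lists overlapped between the parabiosis livers. The white blood cell list had medians of 466 rpmm in IY, 486 in HY, 599 in HA and 589 in IA. The germ cell and gonad list had medians of 4.02, 2.90, 4.95 and 5.26 rpmm, with miR-202-5p at 0 in every liver of all groups. Its other strand, miR-202-3p, was at 0 in every IY and every HY liver, but not in every HA or every IA liver. The liver list lay between 82946 and 169369 rpmm in the IY, HA and IA livers and between 29569 and 133938 rpmm in the HY livers.

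The difference between aged and young mice was larger in liver than in heart, kidney, limb muscle and mesenteric fat of the same mice. In those tissues neither member passed the filter, and both entered the fits through liver alone. The values for those tissues therefore largely repeat IA minus IY of liver itself, and the p-value is no separate support. IA minus IY was larger in liver than in heart by 3.13 ± 0.29 log2 units for miR-465a-3p (limma on differences within a mouse, adjusted p = 9.67e-08), and than in kidney, limb muscle and mesenteric fat by 3.03 ± 0.27, 3.03 ± 0.26 and 3.38 ± 0.49. For miR-741-3p the values were 2.91 ± 0.28, 2.89 ± 0.25, 2.85 ± 0.24 and 2.95 ± 0.37. The share of miRNAs with a larger difference in liver was 7.17% against heart, 4.66% against kidney, 17.5% against limb muscle and 2.98% against mesenteric fat. Against gonadal fat, where 1.57% were larger in liver, the differences of 1.57 ± 0.79 and 1.73 ± 0.58 were not called (adjusted p = 0.352 and 0.164).

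Outside liver and gonadal fat the parabiosis mice had low levels. In heart, miR-465a-3p was 0.12 to 0.81 rpmm in all 30 males (median 0.48). In kidney it was at most 0.17 rpmm and in limb muscle at most 0.16 rpmm. In mesenteric fat the median was 0.07 rpmm, and 1 library, IY replicate 16B, held 7.41 rpmm, with a miRNA profile closer to gonadal than to mesenteric fat. The 4 other mesenteric libraries with such a profile held 0 to 0.27 rpmm.

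Gonadal fat was uneven within every group. Of 30 libraries, 10 held 5 rpmm or more of miR-465a-3p, namely 2 of 8 IY, 3 of 7 HY, 2 of 7 HA and 3 of 8 IA, and the others held at most 2.87 rpmm. The highest was IA replicate 7A, with 63.1 rpmm of miR-465a-3p and 25.8 rpmm of miR-741-3p. It also held 43.2 rpmm of miR-880-3p and 39.7 rpmm of miR-871-5p. In HA replicate 11A the values were 37.8, 12.7, 22.2 and 21.3 rpmm. Group medians of miR-465a-3p were 0.25 rpmm in IY, 0.68 in HY, 0.42 in HA and 2.25 in IA, and all 4 groups overlapped. In the aging cohort, gonadal fat of 37 mice of both sexes held at most 0.64 rpmm.

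No contrast was called for either member in gonadal fat. IA minus IY was 1.47 ± 0.99 log2 units for miR-465a-3p (95% interval -0.48 to 3.41, limma adjusted p = 0.448) and 1.124 ± 0.75 for miR-741-3p (adjusted p = 0.448). The other 3 contrasts lay between -0.70 and 1.07, with adjusted p of 0.764 to 0.952. Of 621 miRNAs tested there, 6.28% were called in IA minus IY, 3.86% in HA minus IA, 0.161% in HA minus HY and 0% in HY minus IY. Gonadal fat lies against the testis and epididymis in males. The germ cell and gonad list summed to 98.0 to 2219 rpmm in these libraries against 1.00 to 7.16 rpmm in the livers of the same cohort. miR-202-5p, at 0 in those livers, ranged from 0 to 13.5 rpmm in gonadal fat, with 8.06 rpmm in HA replicate 11A and 1.14 rpmm in IA replicate 7A. The epithelial marker miR-200b-3p, chosen after its values were seen, ranged from 12.0 to 2126 rpmm (median 181) over the 30 libraries. It was 1246 rpmm in IA replicate 7A, 630 in HA replicate 11A and 2126 in HA replicate 1A. However, IA replicate 7B held 837 rpmm of it beside only 1.06 rpmm of miR-465a-3p. In IY replicate 15A miR-200b-3p was 93.1 rpmm beside 8.82 rpmm of miR-465a-3p. The liver miRNA miR-122-5p was 17055 rpmm in HA replicate 1A, whose miR-465a-3p was 45.04 rpmm, and 2153 rpmm in IY replicate 15B, but 161 rpmm in IA replicate 7A and 36.8 rpmm in HA replicate 11A. The part of gonadal tissue, epithelium and liver RNA in these values was not tested.

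**Figure D5:**
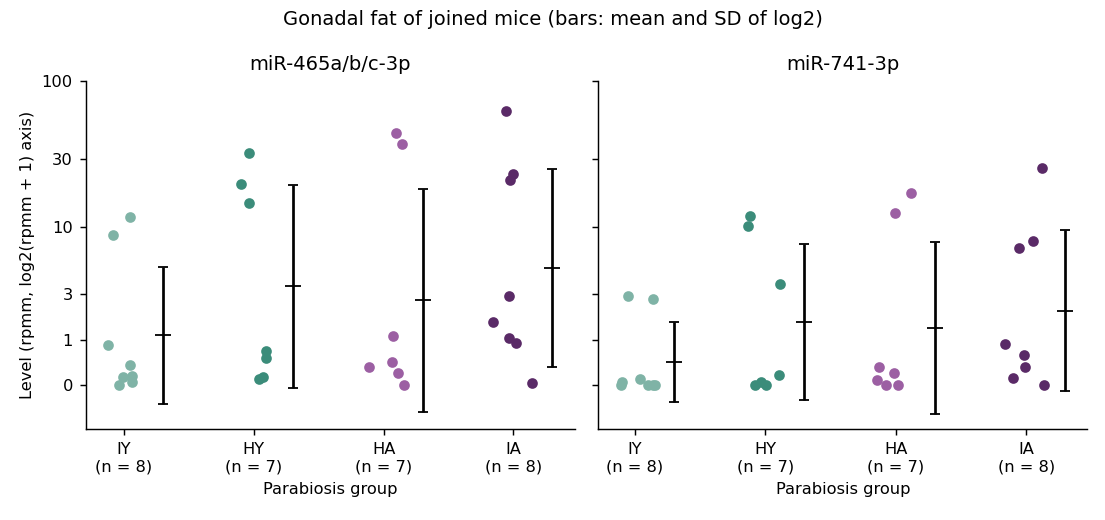
Level of miR-465a/b/c-3p (left) and miR-741-3p (right) in each gonadal fat library of the parabiosis cohort, on a log2(rpmm + 1) axis labelled in rpmm, in the young groups IY and HY and the aged groups HA and IA; bars give the mean and SD on the log2 scale. High and low libraries occurred in all 4 groups, with 10 of 30 at 5 rpmm or more of miR-465a-3p.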

How the data were processed

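Small RNA libraries were made from total RNA of each tissue (MGIEasy kit) and mapped by the authors with Bowtie, allowing 1 mismatch, and quantified with miRMaster 2.0 against miRBase, on mm10 per the labels. They removed libraries under 2 M (M, 1000000) aligned reads and deposited a signal scaled to 1000000 mapped reads (rpmm), from which 2 columns were not used. The value of 1 read was taken as the smallest value above 0 in each library, and 98.97% (aging) and 98.84% (parabiosis) of miRNA values up to 1000 reads came out whole within 0.05 reads. One liver column was given to its sample by the deposited annotation, since its number differed from the title. Depth per library was 2.29 to 166.9 M mapped reads (medians 20.1 M in both cohorts). It limits counting precision, and other effects of depth were not tested.

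miRNAs at 1 rpmm or more in 10% of a tissue's libraries were tested on log2(rpmm + 1) with limma 3.58.1 (R 4.3.3), with Benjamini-Hochberg adjustment over all miRNAs of the fit and 95% intervals of 1.96 SE. Sex and slope fits used liver libraries of 1 to 21 months with age as a factor or a line. Parabiosis fits held the 4 groups. Age trends outside liver and the order of tissues used 100000 shuffles, two-sided. Liver's own trend was described only. edgeR 4.0.16 and DESeq2 1.42.0 on recovered reads were alternatives. Scripts were tested on simulated data.

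The labels number the joined pairs, so partners share a number. Their deviations from group means correlated above 0.1 in 10 of 15 pairs (-0.44 to 0.64), and all 7 heterochronic pairs were among these. Apart from these pairs, nothing says that mice were separate litters or cages, so p-values measure the spread between mice. Members and lists were chosen with earlier results of these data known. Where a result was added after seeing the data this is stated. Named were the members, the listed X-chromosome neighbours, and the 5 miRNAs with the highest rho with each member.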

Additional observations from a re-analysis of the deposited data

Results flagged for a closer look

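A gap test for single samples was run on rpmm in 43 sets of group values, and 8 stood apart. The sets held both members in liver and gonadal fat and miR-465a-3p in heart. The test's rate of about 1 in 20 assumes independent, normally distributed values. The aging groups pooled both sexes and the members rose and fell together, so these flags are not set against that rate. In the aging livers these were miR-465a-3p in replicate 56 of 6 months (8.66 rpmm, a male) and both members in the library labelled female replicate 31 of 9 months (39.8 and 9.82 rpmm), whose low Xist count is given above. In heart it was miR-465a-3p in replicate 18 of 18 months (2.03 rpmm, a female). In the parabiosis livers these were miR-741-3p in HA replicate 2A (39.6 rpmm) and miR-465a-3p in IY replicate 17B (4.48 rpmm). In gonadal fat both members stood apart in IA replicate 7A (63.1 and 25.8 rpmm).

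The age slope in liver was steeper in males by 0.217 log2 units per month for miR-465a-3p and 0.181 for miR-741-3p, a description only, since the members were chosen by their rise in the same livers. Other effects under the same contrast differed between tissues (limma). The male minus female difference was larger in liver than in heart by 2.49 and 1.65 log2 units, with opposite signs in the 2 tissues for miR-465a-3p. The livers of that comparison also entered the choice of members. Of the 2 tissues, miR-741-3p passed the filter only in liver. IA minus IY was larger in liver than in heart by 3.13 and 2.91 log2 units, and than in kidney by 3.03 and 2.89. Against limb muscle the values were 3.03 and 2.85, and against mesenteric fat 3.38 and 2.95. Neither member passed the filter in those other tissues, so these values largely repeat the liver difference.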

How the results depend on the processing

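IA minus IY and HA minus HY in liver stayed called for both members under all alternatives run, at 2.53 to 3.93 log2 units when a pair was left out and otherwise between 2.62 and 4.55 log2 units. The slope difference by sex, not tested for the members, lay between 0.170 and 0.228 log2 units per month under 5 alternatives. With the joined pair as a replicate block IA minus IY was 3.04 ± 0.42 for miR-465a-3p and 2.85 ± 0.39 for miR-741-3p in liver (limma, adjusted p = 1.96e-06 for both), with 22 miRNAs called, and the pairing changed no call of a member in liver or gonadal fat. Leaving out 1 pair gave 2.82 to 3.20 and 2.65 to 3.03 for IA minus IY, 3.21 to 3.93 and 2.53 to 3.13 for HA minus HY, -0.21 to 0.37 and -0.44 to 0.16 for HA minus IA, and -0.64 to -0.35 and -0.22 to 0.019 for HY minus IY, with 20 to 26, 23 to 48, 0 to 1 and 0 to 1 miRNAs called. Leaving out 1 library, 21 minus 3 months lay between 3.73 and 5.12 for miR-465a-3p and between 2.63 and 3.66 for miR-741-3p. DESeq2 called 40 miRNAs in IA minus IY, 12 in HA minus IA and 8 in HY minus IY, while miRNA-read scaling called 3 and the fit without the 3 mice of the other substrain 1 in HA minus IA. Differences that were never called changed sign: HA minus IA was -0.13 for miR-465a-3p with the pool as a covariate, and 0.22 (edgeR) and 0.26 (DESeq2) for miR-741-3p, and HY minus IY for miR-741-3p was 0.030 (miRNA-read scaling), 0.021 (median-ratio scaling) and 0.10 (3-month IY mice). The cause was not tested. Plate as a covariate ended the sex calls in liver (1.09 and 0.86) and left 14 of 45 miRNAs called. The heart fall was not called in males (-0.32), in females (-0.69) or without the 1-month libraries (-0.41). At 3 months 0 tissue neighbours were called. Over pairs, liver minus gonadal fat for miR-741-3p gave 1.73 (exact permutation p = 0.0286).

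The comparisons of sex in heart, of heart with liver, and those without replicate 31 or the 3 mice of the other substrain were chosen after seeing the data. Depth limits levels under about 0.2 rpmm, and 3 old females limit the contrast of old livers by sex.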
